A study of Mus musculus with 23 samples.

Results

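Hepatic stellate cells are the vitamin A storing cells that lie between hepatocytes and the endothelium of the liver sinusoids. After injury they can turn into contractile, matrix-producing cells under signals such as TGF-beta and PDGF, and the collagens they deposit form the scar of a fibrotic liver. The 33 genes described here are markers of these cells and of related mesenchymal cells, the collagens and other matrix proteins they make, the enzymes that cross-link or cut this matrix, and members of the TGF-beta pathway. They were taken as a list of symbols, and each gene is represented by its brightest probe. A probe was found for 32 of the 33, all but Col6a3. Col5a2 was well above background on 0 of 23 arrays, and Lox on 3 of 23 by its best probe, so neither could be tested. The other 30 were tested among 19899 genes.

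Liver RNA came from 23 female B6C3F1 mice, bought at 5 to 6 weeks of age and gavaged for 21 days. Of these, 5 received only the corn oil vehicle (control), and 4, 5, 4 and 5 received furan in corn oil at 1, 2, 4 and 8 mg/kg. Furan is a small volatile ring compound that forms when food is heated and is oxidised in hepatocytes by CYP2E1 to a reactive aldehyde. Livers were taken 4 h after the last dose, and each liver (Cy5) was hybridised on a 2-colour Agilent array against 1 universal mouse reference RNA (Cy3), with no dye swap. The series text calls the animals biological replicates and counts 25, of which 23 are analysed here. Values are log2 ratios of liver to reference RNA after loess normalisation within each array, and a difference between groups is a difference of these log2 values.

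The liver channel had 22011 to 30120 probes well above background per array, and replicates of 1 group correlated with a median r of 0.976, against 0.974 between groups. All 8 general hepatocyte markers were above background on every array. On 4 arrays the mean of 6 pancreatic acinar genes lay 2.58 to 3.75 log2 units above the control mean, whereas it reached at most 0.41 on the others. These were replicates 1 and 5 of the 2 mg/kg group, replicate 1 of the 4 mg/kg group and replicate 5 of the 8 mg/kg group. The same 4 arrays and control replicate 1 were high in the mean of 5 smooth muscle markers. Replicate 4 of the 2 mg/kg group had the highest neutrophil score, 2.84, from 4 tested markers of 8 listed. The median of that group, 0.75, was also above every animal of the other groups, where the highest was 0.52. Results that rest on the arrays named here are given below with and without them, or with the values of single animals. In RNA from whole liver, fewer cells of a type and less RNA per cell cannot be told apart.

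In control livers, 5 of the 30 members were above the reference RNA, a pool of RNA from several sources, and 25 were below it. The 5 were Lrat, the enzyme that esterifies retinol for storage and a widely used marker of quiescent stellate cells, the secreted glycoprotein gene Reln, the nerve growth factor receptor gene Ngfr, and the small leucine-rich proteoglycans Lum and Dcn. Lrat had a log2 ratio of 7.56 ± 0.19 in controls (SD, n = 5). Reln had 5.78 ± 0.28. The reference channel was well above background on 0 of 23 arrays for both, so these 2 ratios are limited by dim reference spots and are bounds rather than levels. Ngfr had 4.24 ± 0.32, Lum 2.81 ± 0.33 and Dcn 1.22 ± 0.24 in the same animals. Col1a1, the main chain of type I collagen, lay at -5.83 ± 0.28 and the intermediate filament gene Vim at -6.28 ± 0.08. These ratios depend on what the reference holds and do not rank the genes by abundance.

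No member passed the test at any dose. At 8 mg/kg, 0 of 30 members had an adjusted p below 0.05 in limma, while 8.01% of all genes did. One member, Lum, had an unadjusted p below 0.05, against 20.9% of all genes. With slide as a block the count was again 0, against 11.7% of all genes. Slide means the glass slide, read from the array barcode in the file headers, that carried up to 5 of these arrays, numbered here from 1 to 5. The median change of the members was 0.05 at 8 mg/kg, and that of all genes was -0.03. The median size of the change, whatever its sign, was 0.10 for the members and 0.15 for all genes. Separation of animals gave the same count: 0 of 30 members had 8 mg/kg and control values that did not overlap, against 8.75% of all genes.

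The lower doses gave the same count. At 1 mg/kg 0 of 30 members and 0% of all genes were called. At 2 mg/kg 0 members were called, against 0.0101% of all genes, and Col1a1 had the smallest adjusted p, 0.585. At 4 mg/kg 0 members were called, against 0.0804% of all genes, and the smallest adjusted p was 0.655, for Reln. Without a block no member had an unadjusted p below 0.05 at any of these 3 doses, whereas 3.52%, 8.66% and 8.9% of all genes did at 1, 2 and 4 mg/kg. With slide as a block, Fbn1 at 2 mg/kg and Col6a1 at 4 mg/kg were below it (adjusted p = 0.431 and 0.313 in limma). Between 8 and 4 mg/kg 0 members were called (0.206% of all genes). For a slope on dose the count was 0 (10.4% of all genes), and for a change at any dose 0 (3.14% of all genes). Without a block, unadjusted p was below 0.05 for 1 member, Reln, between 8 and 4 mg/kg (8.43% of all genes). It was so for 1, Tgfb1, in the slope (22.9%), and for 0 in the test of any dose (15.1%).

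A p that misses the threshold does not show that a gene stayed at the same level, and the width of each interval says what size of change was still possible. At 8 mg/kg the 95% interval of the change lay within 1.5-fold either way for 19 of 30 members, and for 61.8% of all genes. It lay within 2-fold for 28 of 30, the exceptions being Des and Reln, and for 89% of all genes. The members were somewhat more variable than other genes: their median residual SD was 0.30, against 0.24 over all genes, from 0.17 for Col5a1 to 0.71 for Des. Of the 32 matched members, 7 had several probes, and where a further probe of a tested gene was read it correlated with the one used at r = -0.01 to 0.66 over the animals. The further probes of Loxl1, Loxl2, Sparc, Tgfb2, Tgfbr2 and Timp2 changed by -0.16 to 0.21 at 8 mg/kg. The 2 further probes of Loxl2 disagreed in sign, and those of Sparc, Tgfb2 and Timp2 differed in sign from the probe used.

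**Figure D1:**
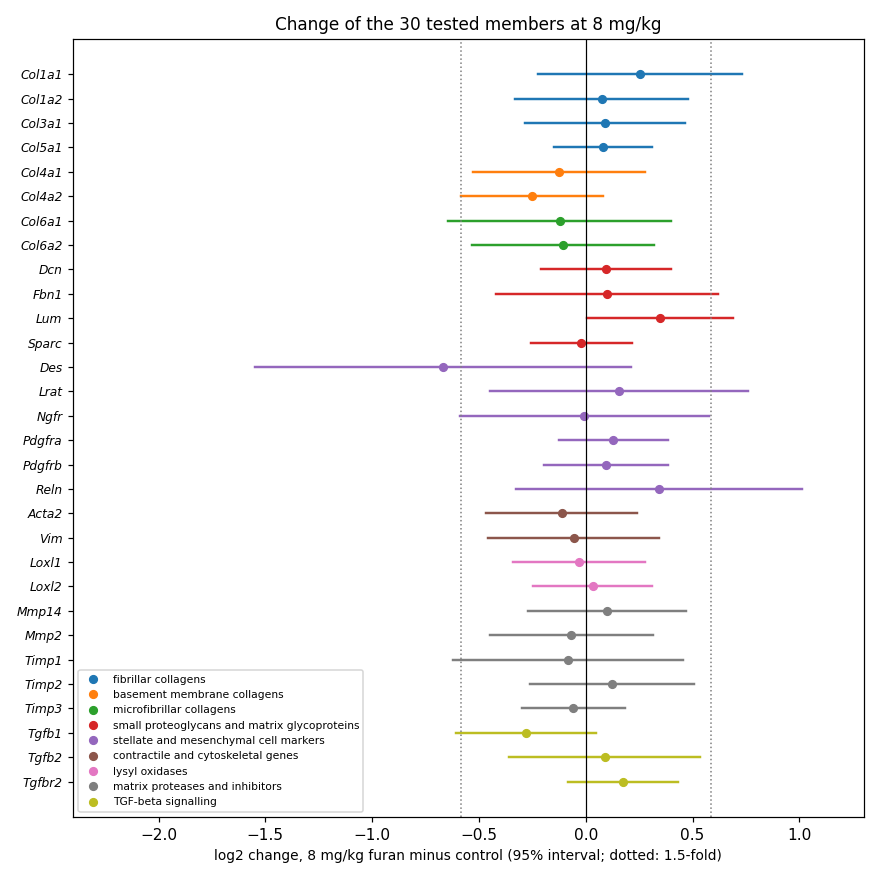
Change of each tested member at 8 mg/kg furan relative to control on the log2 scale, with its 95% interval from limma, grouped by role (5 animals in each group). Dotted lines mark 1.5-fold. The interval of Lum lies just above 0 before adjustment, and those of Des and Reln are the 2 that reach past 2-fold.

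The fibrillar collagens, which form the fibres of scar tissue, were measured through Col1a1, Col1a2, Col3a1 and Col5a1. Col1a1 was at -6.04, -5.60, -5.62, -5.59 and -5.01 in the 8 mg/kg livers, against -5.33, -6.00, -5.87, -5.91 and -6.01 in the control livers. The groups overlapped: the highest 8 mg/kg animal was the pancreas-rich replicate 5, and the highest control was replicate 1. The difference was 0.25 ± 0.23 (SE), with a 95% interval of -0.22 to 0.73 and an adjusted p of 0.599 in limma. Without replicate 5 of the 8 mg/kg group it was 0.11, and without control replicate 1 it was 0.38, neither of which passed. Col3a1, which makes type III collagen, was at -3.86, -4.08, -3.71, -3.84 and -3.40 at 8 mg/kg, against -3.49, -4.05, -4.08, -4.05 and -3.68 in controls. These ranges lay almost on top of each other, and the difference was 0.09 ± 0.18 (SE). It was -0.00 without replicate 5 of the 8 mg/kg group. Col1a2, the partner chain of Col1a1, differed by 0.07 and Col5a1, a minor chain that helps start fibre assembly, by 0.08.

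At 2 mg/kg Col1a1 was at -4.78, -5.46, -6.08, -5.34 and -5.14, so 4 of 5 animals were above the control median of -5.91. The mean difference from control was 0.47 ± 0.23 (SE, adjusted p = 0.585 in limma). Without the 4 pancreas-rich arrays, which include 2 of these animals, it was 0.20. Fbn1, the microfibril protein fibrillin-1, had the largest change of any member at 2 mg/kg in these values. It was at -2.67, -3.08, -3.50, -2.96 and -3.30 in these animals, against -2.82, -3.93, -4.18, -3.75 and -3.35 in controls. Control replicates 1 and 5 lay inside the 2 mg/kg range and the other 3 controls lay below it. The difference was 0.50 ± 0.25 (SE, adjusted p = 0.587 in limma), and 0.70 without control replicate 1 (adjusted p = 0.502). It was 0.43 without the 4 pancreas-rich arrays, 0.12 on median signals without background correction and 0.11 in a fit to the authors' deposited table. Col1a1 was highest on the 4 pancreas-rich arrays and control replicate 1, which also had the highest smooth muscle scores. The part of smooth muscle and pancreatic markers in the Col1a1 and Fbn1 differences was not tested.

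**Figure D2:**
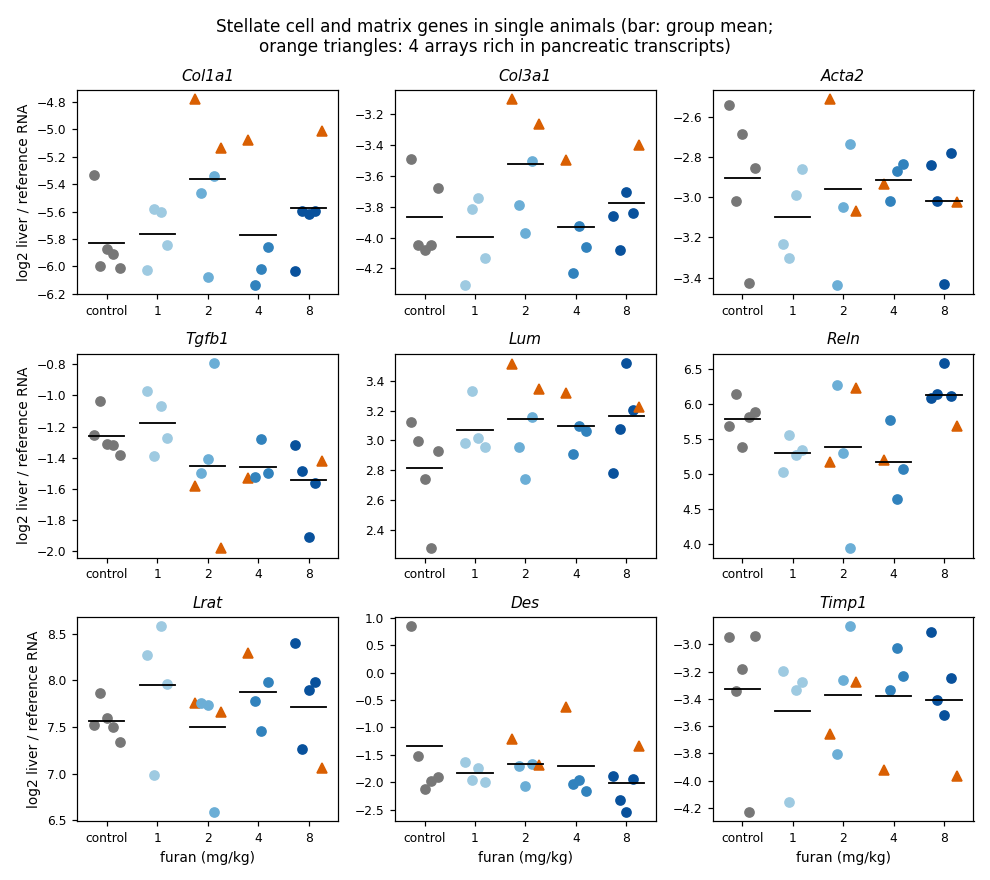
Log2 ratio of liver to reference RNA for 9 members in each of 23 animals by furan dose in mg/kg. Bars are group means and orange triangles are the 4 arrays rich in pancreatic transcripts. Every 8 mg/kg group overlaps its controls, and single animals, such as 1 control for Des at 0.84, set the spread of several genes.

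Of the other collagens, Col4a1 and Col4a2 encode the chains of the basement membrane network, and Col6a1 and Col6a2 encode chains of the beaded filaments that anchor cells to matrix. Col4a2 was at -1.30, -1.50, -1.92, -1.50 and -1.39 in 8 mg/kg livers, against -0.98, -1.22, -1.31, -1.44 and -1.41 in control livers. Of the 8 mg/kg animals 3 were below every control, and the other 2 lay within the control range. The difference was -0.25 ± 0.16 (SE), with an adjusted p of 0.406 in limma. Col4a1 differed by -0.13, Col6a1 by -0.12 and Col6a2 by -0.11, each less than its own SE.

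Among the proteoglycans and glycoproteins, Lum had the smallest adjusted p of all members at 8 mg/kg. Lumican binds collagen fibrils and limits their width. Its values were 2.78, 3.08, 3.52, 3.20 and 3.22 at 8 mg/kg, against 3.13, 3.00, 2.74, 2.28 and 2.93 in controls. The groups overlapped, since 1 animal at 8 mg/kg was below the control median, and control replicate 4 was lowest. The difference was 0.35 ± 0.16 (SE), a 1.27-fold change with a 95% interval of 1.00 to 1.61-fold, and its adjusted p was 0.229 in limma. From control through 1, 2 and 4 to 8 mg/kg the group means were 2.81, 3.07, 3.14, 3.09 and 3.16, with no step between the furan doses larger than their SDs. Within the 4 slides that held both groups, Lum was higher at 8 mg/kg on 3 and lower on 1, with differences from -0.24 to 0.95. Dcn, or decorin, which binds TGF-beta as well as collagen, differed by 0.09. Sparc, a collagen-binding glycoprotein of remodelling matrix, differed by -0.02, and Fbn1 by 0.10.

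Lrat, the marker of quiescent stellate cells, varied widely between animals of one dose. It was at 7.53, 7.86, 7.59, 7.50 and 7.34 in controls. It was at 8.27, 6.99, 8.58 and 7.96 at 1 mg/kg, and at 7.75, 7.75, 7.74, 6.59 and 7.66 at 2 mg/kg. At 4 mg/kg it was at 8.29, 7.78, 7.46 and 7.98, and at 8 mg/kg at 8.40, 7.27, 7.89, 7.98 and 7.06. Every furan group overlapped the controls. At 1 and 8 mg/kg animals lay on both sides of the control range, at 2 mg/kg 1 animal lay below it and none above, and at 4 mg/kg 2 lay above it and none below. Because the reference spot was dim on every array, the ratio's difference at 8 mg/kg, 0.16 ± 0.29 (SE, adjusted p = 0.839 in limma), has no firm size. In the liver channel alone it was -0.09 ± 0.33 (SE, adjusted p = 0.946 in limma), of the opposite sign. That channel was normalised with the average of both channels, so it is not free of the reference spots. The lowest animal of all was replicate 4 of the 2 mg/kg group, the one with the highest neutrophil score.

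Reln was the only member with an unadjusted p below 0.05 between 8 and 4 mg/kg in limma without a block. With slide as a block 2 members were below 0.05, of which Reln had the smaller p (adjusted p = 0.297). Values of Reln were 6.09, 6.15, 6.59, 6.12 and 5.69 at 8 mg/kg, against 5.20, 5.78, 4.65 and 5.08 at 4 mg/kg. Only the lowest 8 mg/kg animal was below the highest 4 mg/kg animal. The difference was 0.95 ± 0.34 (SE), with an unadjusted p of 0.0112 and an adjusted p of 0.383 in limma without a block. In the liver channel alone, normalised as for Lrat so that the dim reference spots still entered, it was 0.32 (adjusted p = 0.901 in limma). Controls were at 5.69, 6.15, 5.39, 5.83 and 5.88, overlapping both doses, and the changes from control at 1, 2, 4 and 8 mg/kg were -0.48, -0.40, -0.61 and 0.34. In the liver channel alone the same 4 changes were 0.05, -0.34, -0.30 and 0.02. The 2 mg/kg animals were at 5.18, 6.27, 5.30, 3.94 and 6.24, and the lowest was replicate 4, with the highest neutrophil score. Replicate 4 was also the lowest of that dose in the liver channel, at 6.02, against 7.48 to 8.20 in the others. Over all alternatives the 2 mg/kg change of the ratio or the liver channel ran from -0.64 to -0.03. Within slides, Reln at 4 mg/kg was below its control on 3 of 3 slides, and at 8 mg/kg it was above on 3 of 4.

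Des, or desmin, is an intermediate filament of stellate cells and of muscle. It was at -1.89, -2.32, -2.54, -1.94 and -1.35 in 8 mg/kg livers, against 0.84, -1.51, -2.12, -1.98 and -1.91 in control livers. A single control animal stood more than 2 log2 units above the other controls. The difference was -0.67 ± 0.42 (SE, adjusted p = 0.404 in limma), and -0.13 without control replicate 1 (adjusted p = 0.899). The change at 1 mg/kg, -0.49, became 0.05 without that animal. Control replicate 1 was also the control with the highest smooth muscle marker score, 1.29, where the other 4 controls lay between -0.71 and 0.01.

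**Figure D3:**
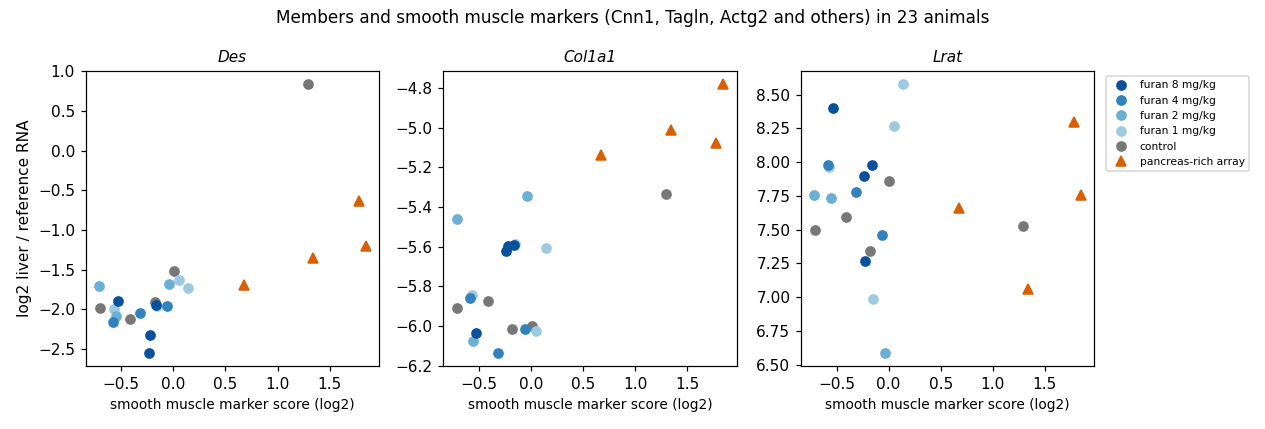
Log2 ratio of Des, Col1a1 and Lrat to reference RNA against the mean of 5 smooth muscle markers (log2, relative to the control mean) in 23 animals. The 4 pancreas-rich arrays (orange triangles) and control replicate 1 have the 5 highest marker scores and the 5 highest Col1a1 values. Des is high in 4 of these 5, and their Lrat values, 7.06 to 8.29, lie inside the range of the other animals.

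The smooth muscle list held 7 genes, of which 5 were tested: Cnn1, Tagln, Myl9, Actg2 and Tpm2. Lmod1 was above background on no array, Myh11 on 11 of 23 and Cnn1 on 14 of 23. None of the 5 passed at 8 mg/kg, and the score ranged from -0.53 to 1.34 in the 8 mg/kg livers and from -0.71 to 1.29 in the controls. Cnn1, which marks contractile smooth muscle, was at -1.41 in control replicate 1, and between -4.82 and -3.28 in the other controls. On the 4 pancreas-rich arrays it lay between -1.22 and 0.75. Not every marker was high on each of these arrays. In replicate 5 of the 2 mg/kg group Tagln was at -3.68 and Tpm2 at -2.74, both inside the range of the controls other than replicate 1. The part of vessel wall or other attached tissue in the high Des and Col1a1 values was not tested.

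Acta2, the smooth muscle actin that activated stellate cells and vessel walls both express, was at -2.84, -3.02, -3.43, -2.78 and -3.02 at 8 mg/kg, against -2.54, -3.02, -2.69, -3.43 and -2.86 in controls. The ranges were nearly the same, and the difference was -0.11 ± 0.17 (SE, adjusted p = 0.792 in limma). Its 95% interval ran from 0.724 to 1.18-fold. Vim differed by -0.06 at 8 mg/kg and was highest in the animal with the highest neutrophil score, at -5.38. The PDGF receptor genes, whose proteins drive stellate cell growth, were also close to control: Pdgfra differed by 0.13 and Pdgfrb by 0.09. Ngfr differed by -0.01.

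The enzymes that build and cut matrix gave the same picture. Loxl1 and Loxl2, enzymes of the family that cross-links collagen and elastin, differed by -0.03 and 0.03 at 8 mg/kg. The collagenase and gelatinase genes Mmp14 and Mmp2 differed by 0.10 and -0.07. The inhibitors of these proteases, Timp2 and Timp3, differed by 0.12 and -0.06. Timp1, an inhibitor that rises in most models of liver fibrosis, was at -2.91, -3.41, -3.52, -3.24 and -3.97 in 8 mg/kg livers, against -2.95, -3.34, -3.18, -4.23 and -2.94 in control livers. Both groups held 1 low animal, and both of those were on slide 1. The difference was -0.08 ± 0.26 (SE, adjusted p = 0.914 in limma), and 0.00 with slide as a block.

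In the TGF-beta group, Tgfb1 encodes the main fibrogenic ligand, Tgfb2 a related ligand and Tgfbr2 the receptor chain that binds them. Tgfb1 was at -1.26, -1.04, -1.31, -1.32 and -1.38 in controls, and at -0.97, -1.39, -1.07 and -1.28 at 1 mg/kg. It was at -1.58, -1.50, -1.41, -0.79 and -1.98 at 2 mg/kg, at -1.53, -1.52, -1.28 and -1.50 at 4 mg/kg, and at -1.32, -1.48, -1.91, -1.56 and -1.42 at 8 mg/kg. At 8 mg/kg 4 of 5 animals were below every control. The difference at 8 mg/kg was -0.28 ± 0.16 (SE, adjusted p = 0.328 in limma), and within the 4 slides that held both groups it lay between -0.87 and -0.00. The slope was -0.04 log2 units per mg/kg, with an unadjusted p of 0.04 and an adjusted p of 0.191, the smallest of any member. Tgfbr2 was at -1.45, -1.64, -1.41, -1.54 and -1.43 at 8 mg/kg, against -1.62, -1.97, -1.69, -1.50 and -1.57 in controls. It was higher at 8 mg/kg within 4 of 4 slides, and the difference was 0.18 ± 0.12 (SE, adjusted p = 0.471). Tgfb2 differed by 0.09.

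Slide, unlike dose, separated some members. Each of the 5 slides carried 4 or 5 of the arrays, of several dose groups. In limma, with dose group in the fit, 6 of 30 members differed between slides at an adjusted p below 0.05, and so did 24.4% of all genes, a share close to theirs. The 6 were Timp1 (adjusted p = 5.46e-05), Col6a1 (0.000179), Ngfr (0.00118), Mmp2 (0.0124), Pdgfrb (0.0371) and Acta2 (0.0431). Timp1 ranged from -4.23 to -3.80 on slide 1 and from -3.66 to -2.87 on the other 4, so every animal of slide 1 was below every other animal. Col6a1 ranged from -3.40 to -2.98 on slide 1 and from -2.45 to -1.66 on slide 4. Ngfr went the other way: it ranged from 3.29 to 3.95 on slide 4 and from 4.40 to 4.78 on slide 3. Mmp2 was lowest on slide 1, with a median of -2.54, Pdgfrb on slide 4, with -1.80, and Acta2 on slide 1, with -3.30.

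By dose, the same members overlapped. Col6a1 was at -2.48, -2.67, -3.15, -2.18 and -2.98 at 8 mg/kg, against -2.35, -2.69, -2.09, -3.11 and -2.61 in controls. Ngfr was at 4.63, 4.17, 4.40, 3.48 and 4.48 at 8 mg/kg, against 4.39, 4.73, 3.95, 4.07 and 4.05 in controls. For both, each group held animals above and below the median of the other. Mmp2 was at -1.74, -2.14, -2.53, -2.13 and -2.49 at 8 mg/kg, against -1.76, -2.04, -2.11, -2.78 and -2.00 in controls. Pdgfrb was at -1.13, -1.58, -1.21, -1.80 and -1.19 at 8 mg/kg, against -1.21, -1.51, -1.82, -1.55 and -1.28 in controls. The lowest animal of these groups was a control for both genes.

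**Figure D4:**
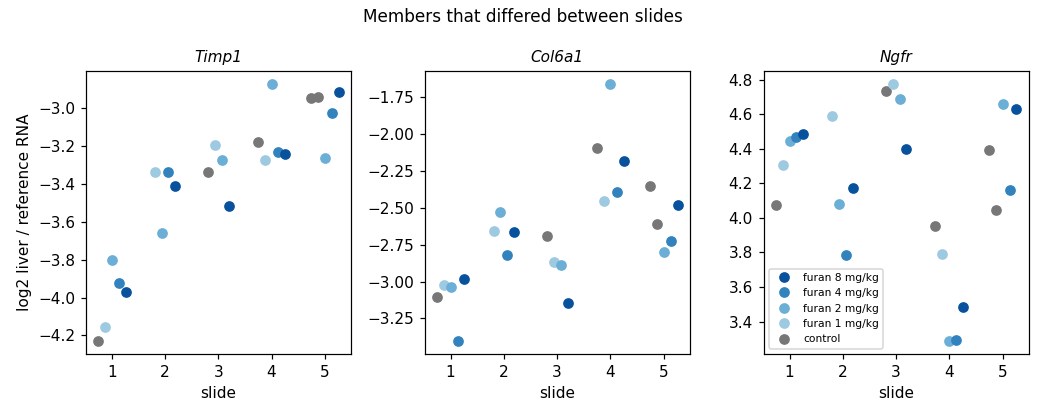
Log2 ratio of Timp1, Col6a1 and Ngfr to reference RNA in 23 animals by array slide, coloured by dose group. All 5 slide 1 animals lie below the rest for Timp1, and slide 4 has the highest median for Col6a1 and the lowest for Ngfr.

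Some members varied together from animal to animal. For this, each gene's deviation from its group mean was correlated over the 23 animals with that of a chosen member, and the p of 100000 permutations was adjusted over 19880 genes. The permutation treats the deviations as free although group means were fitted, which makes its p somewhat too small. With Col1a1, 2 of 29 other members passed, against 0.181% of all genes. Col3a1 had r = 0.85 (Spearman's rho 0.77, permutation p = 1e-05, the smallest the permutations can give, adjusted p = 0.0124). Timp2 had r = 0.78 (rho 0.81, the same permutation p and adjusted p) by the probe used, with which its further probe correlated at r = 0.42. By rank neither passed, with adjusted p of 0.133 and 0.0663. Without the 2 animals farthest from the median of Col1a1, both pancreas-rich, r was 0.79 and 0.77 and 0 members passed, against 0.0252% of all genes. Without the 4 pancreas-rich arrays r was 0.66 and 0.65, and 0 members and 0% of all genes passed. With control replicate 1 also left out 0 members passed, against 0.0604% of all genes, while with slide fitted as well over all 23 animals 9 members did, against 1.49%. The genes most like Col1a1 over all 23 animals included the smooth muscle markers Myl9 (r = 0.88) and Cnn1 (r = 0.86).

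Col4a2, an anchor taken after these values were known, went with its neighbour Col4a1 and with Tgfb1. Of 29 members, 7 passed, against 7.34% of all genes. Tgfb1 had r = 0.90 (rho 0.82, permutation p = 1e-05, adjusted p = 0.00452) and Col4a1 r = 0.84 (rho 0.82, permutation p = 1e-05, adjusted p = 0.00452). Reln went the opposite way, with r = -0.795 (rho -0.71, permutation p = 2e-05, adjusted p = 0.00497). The ratio of Reln, like that of Lrat, is limited by dim reference spots. Its correlation in the liver channel alone was not tested. Col6a2, Sparc, Col6a1 and Mmp14 were the other 4, with r from 0.62 to 0.70. Without the 2 animals farthest from the median of Col4a2, replicates 4 and 5 of the 2 mg/kg group, Tgfb1 kept r = 0.77 (adjusted p = 0.0353) and Col4a1 kept r = 0.71 (adjusted p = 0.0441), and the other 5 no longer passed. Col6a2 then had r = 0.64 (adjusted p = 0.072), Reln -0.56, Col6a1 0.41, Sparc 0.35 and Mmp14 0.30. The share of all genes that passed was then 1.14%. By rank neither Tgfb1 (adjusted p = 0.0641) nor Col4a1 (0.0909) passed without those animals. With slide fitted as well over all 23 animals, 10 of 29 members passed with Col4a2, against 16.4% of all genes. Genes that are no members were as close to Col4a2. Without the slide term, Rad9a (r = 0.89) and Map3k3 (r = 0.88) lay between Tgfb1 and Col4a1. Lrat, the stellate cell marker, had 0 members that passed without the slide term, with 0% of all genes.

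Col4a1 and Col4a2 are shown here because they varied together and lie next to each other on opposite strands of chromosome 8, with annotated starts 21 bases apart and the first bases of both transcripts overlapping. The windows below run 5′ to 3′ on each gene's own strand, from 250 bases before to 50 after the annotated start, from RefSeq on GRCm38.p6. Capitals mark the 78 bases that both windows hold, as reverse complements, at chr8:11312777-11312854. Col4a1 is at chr8:11312777-11313076 on the minus strand and Col4a2 at chr8:11312555-11312854 on the plus strand. Tgfb1, at chr7:25686752-25687051 on the plus strand, is the member with the highest Pearson r with Col4a2 over the 23 animals, and its capitals mark matches of GGGCGG or its reverse complement. With slide fitted as well, Col4a1 had the higher r (0.95, against 0.90 for Tgfb1).
Col4a1: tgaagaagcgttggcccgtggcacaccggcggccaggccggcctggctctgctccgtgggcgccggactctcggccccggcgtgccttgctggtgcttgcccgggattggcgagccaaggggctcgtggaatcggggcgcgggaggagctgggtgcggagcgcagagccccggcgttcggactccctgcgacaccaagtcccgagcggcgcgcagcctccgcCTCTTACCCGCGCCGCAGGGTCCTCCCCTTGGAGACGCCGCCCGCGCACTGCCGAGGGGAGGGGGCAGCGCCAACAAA
Col4a2: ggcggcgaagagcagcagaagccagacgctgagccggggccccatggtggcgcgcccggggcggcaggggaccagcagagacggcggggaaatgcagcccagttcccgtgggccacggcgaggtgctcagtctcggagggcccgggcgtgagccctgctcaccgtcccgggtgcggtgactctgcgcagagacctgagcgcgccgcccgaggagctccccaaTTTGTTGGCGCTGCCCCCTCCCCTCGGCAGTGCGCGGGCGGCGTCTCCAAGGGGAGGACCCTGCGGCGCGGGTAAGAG
Tgfb1: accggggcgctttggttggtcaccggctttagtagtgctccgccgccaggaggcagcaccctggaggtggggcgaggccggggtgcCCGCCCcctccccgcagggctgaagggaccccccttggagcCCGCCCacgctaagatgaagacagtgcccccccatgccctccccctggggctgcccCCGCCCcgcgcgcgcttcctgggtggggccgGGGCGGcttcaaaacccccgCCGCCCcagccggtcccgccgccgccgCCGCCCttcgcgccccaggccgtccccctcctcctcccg
The table of such windows held 24 of the 33 members. On either strand, GGGCGG was found at 1 place in Col4a1, 3 in Col4a2 and 6 in Tgfb1, and in 35.7% of all 32851 windows. CCAAT was found at 1, 1 and 0 places and in 37.4% of all windows, and TATAAA at 0 places in all 3 genes and in 13.6% of all windows. Matches of different motifs did not overlap in these 3 windows. A match is only a run of letters and no evidence of binding.

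Other genes of the same pathways that are no members were also read at 8 mg/kg, from lists of 116 genes of which 96 were tested. Of these 6 rose and 3 fell, or 9.38%, against 8.01% of all genes. All 9 also passed with slide as a block, and so did 3 more. These were Id1, a target of BMP signalling (0.95, adjusted p = 0.0482 with the block and 0.0507 without), the TGF-beta receptor gene Tgfbr1 (0.36, adjusted p = 0.0392 and 0.225) and Col18a1, a basement membrane collagen (-0.23, adjusted p = 0.0176 and 0.0851). Pdgfa, a ligand of the receptor encoded by Pdgfra, was at -1.20, -1.23, -0.74, -1.20 and -1.22 at 8 mg/kg, against -2.08, -2.37, -2.19, -1.93 and -2.05 in controls. Every 8 mg/kg animal was above every control, and the change was 1.01 ± 0.12 (SE, adjusted p = 1.94e-05 in limma). Group means of Pdgfa from control through 1, 2 and 4 to 8 mg/kg were -2.12, -1.93, -1.78, -1.53 and -1.12. Skil, a nuclear repressor of TGF-beta signalling that is itself a TGF-beta target, rose by 0.85 (adjusted p = 0.00048). Tgfbr3, the co-receptor betaglycan, fell by 0.37 (adjusted p = 0.0279). Without the block the other 18 of 21 tested genes of TGF-beta and PDGF signalling did not pass. Ccn2, a matricellular gene induced by TGF-beta, differed by -0.14 ± 0.28 (SE).

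Adamts1, a protease that cuts proteoglycans, rose by 1.12 at 8 mg/kg (adjusted p = 0.000432 in limma), 1 of 7 tested proteolysis genes. Among 33 tested matrix proteins, the basement membrane gene Nid1 rose by 0.57 (adjusted p = 0.00731) and Col5a3, a chain of type V collagen, by 0.71 (adjusted p = 0.0300). Lama4, a laminin chain of vessel basement membranes, fell by 0.81 (adjusted p = 0.0302), and Agrn, the heparan sulfate proteoglycan agrin, by 0.30 (adjusted p = 0.0338). Values of Lama4 were 2.94, 2.48, 2.12, 2.10 and 3.11 at 8 mg/kg, against 3.99, 3.02, 2.88, 3.36 and 3.54 in controls. The groups overlapped, and the highest control was replicate 1, which was high in smooth muscle markers. Of 16 tested genes for collagen folding and processing, 0 passed, and the collagen chaperone gene Serpinh1 differed by 0.14 ± 0.13 (SE).

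Markers of neighbouring cell types were read beside these. At 8 mg/kg 8.01% of all genes passed without a block, and 11.7% with slide as a block. Of 12 endothelial markers, Eng fell by 0.47 (adjusted p = 0.0457 in limma) and Clec14a by 0.48 (adjusted p = 0.0495), and the other 10 did not pass. With slide as a block 0 of the 12 passed, and both Eng and Clec14a had an adjusted p of 0.0713. The mean of the 12 ranged from -0.58 to 0.04 in 8 mg/kg livers and from -0.17 to 0.30 in controls. Of 8 pericentral hepatocyte markers Oat, or ornithine aminotransferase, fell by 0.46 (adjusted p = 0.0346 in limma). With slide as a block Glul (adjusted p = 0.0065) and Cyp2e1 (adjusted p = 0.00999) were lower as well. The rest of the 8 passed in neither fit. Without the block, the median change of the 8 was 0.03, and the highest was 0.20. The mean of the 8 ranged from -0.35 to 0.59 in 8 mg/kg livers and from -0.18 to 0.56 in controls. None of 11 Kupffer cell and macrophage markers and none of 5 portal fibroblast and mesothelial markers passed. The part of cell composition in the changes of Lama4 and the other genes was not tested.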

How the data were processed

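Total liver RNA (Cy5) and universal mouse reference RNA (Cy3) were hybridised on 23 Agilent SurePrint G3 arrays, per the labels. The authors deposited scanner files made with Feature Extraction 10.7.3.1, per the file headers. For each of 62976 spots these deposited files give a linear intensity in both channels, from which the software had taken off the background and corrected for dye, per the file headers. The authors' deposited value table holds a linear ratio of the channels, with column medians of 0.974 to 0.987 and r of 0.922 to 0.970 with the values used here; it served as an alternative, and its normalisation is not given in the sources used here.

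The log2 ratio of the processed signals was loess-normalised within each array (span 0.3, 4 iterations, control and marked spots at weight 0), and spots of 1 probe were averaged. Probes had to be well above background in Cy5 on at least 4 arrays of 1 group (25576 of 55681 did). Names came from RefSeq accessions (26413 probes, 20018 symbols), and 12927 of the 19899 tested genes had a symbol. Groups were compared in limma 3.58.1 (R 4.3.3), with all 5 groups in 1 fit and Benjamini-Hochberg adjustment over all tested genes at 0.05. Code was tested on simulated data. The number of arrays limits the precision, and slide and dose group could be fitted together because most slides held most groups.

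The members and all lists were chosen with earlier results of these data known. Single-animal values are given for members that passed any limma test, slides included, the 5 with the smallest p and the 3 with the largest change at each dose, and 6 set members, and up to 12 companion genes that passed at 8 mg/kg are named. Of the companion genes, 1 that is among the counts is not reported here. Ccn2, Serpinh1, Cnn1 and the genes most like Col1a1 or Col4a2 were named after their values were seen. Replicate numbers do not pair animals: over 18 pairs r lay between -0.23 and 0.26, and 3 were over 0.1.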

Additional observations from a re-analysis of the deposited data

Results flagged for a closer look

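A single animal stood far from its group in 11 of 150 tests of the members' groups, where chance flags about 1 in 20. Replicate 1 of the 4 mg/kg group, a pancreas-rich array, was the high animal for Fbn1 (-2.75), Des (-0.64), Pdgfra (-3.40) and Vim (-5.69). Control replicate 1, which was high in smooth muscle markers, was the high animal for Des (0.84) and Col1a1 (-5.33). Replicate 4 of the 2 mg/kg group, rich in neutrophil markers, was low for Lrat (6.59). Replicate 2 of the 1 mg/kg group, the only one of that group on slide 1, was low for Timp1 (-4.15). The others were replicate 3 of the 4 mg/kg group, low for Col1a2 (-4.32) and high for Tgfb1 (-1.28), and control replicate 5, low for Loxl2 (-2.45).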

How the results depend on the processing

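The count of members called was 0 at each dose under all 40 alternatives, which changed the filter, normalisation, background correction, channel, slide term and animals, and also between 8 and 4 mg/kg. It was 0 for the slope and for any dose under all 39 that could be run. The smallest adjusted p anywhere was 0.124 at 8 mg/kg and 0.0713 for the slope, that of the slope without replicate 5 of the 2 mg/kg group. The median change of the members stayed between -0.04 and 0.07 at 1 mg/kg, -0.04 and 0.11 at 2 mg/kg, -0.10 and 0.04 at 4 mg/kg and -0.02 and 0.10 at 8 mg/kg. Over the same alternatives Lum ranged from 0.17 to 0.44 at 8 mg/kg, Tgfb1 from -0.34 to -0.09 and Col1a1 from 0.11 to 0.38. With the replicate number as a block the count was 0 at each dose, and 2 of 18 animals correlated best with their own number.

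The count of members that differed between slides was 6, but 10 without loess (23.5% of all genes) and 13 on median signals without background correction (40.2%). The count of members that varied with Col1a1 was 2, but 9 when slide was also fitted (1.49% of all genes). It was 0 without the 2 animals farthest from the median of Col1a1, 0 without the 4 pancreas-rich arrays, and 0 without these and control replicate 1. The last 2 settings, and the liver channel alone, were added after the data were seen. The cause of these shifts was not tested. Dim reference spots limit Lrat and Reln, and 2 members were too dim to test.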
